A study of Mus musculus with 57 samples.

Results

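The astrocyte genes examined here are Gfap, Aqp4, Slc1a2, Slc1a3, Aldh1l1, Gja1, Gjb6, S100b and Vim. These 9 genes, of 24963 autosomal genes of the curated RefSeq set, were chosen by name, as widely used markers of astrocytes, with earlier results of these data known. For each gene the peaks, peak widths and reads of H3K4me3, H3K27ac and H3K27me3 were taken within 1 kb of the transcription starting site (TSS) and over the gene body, and cortex was compared with gastrocnemius.

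Astrocytes are the glial cells that clear glutamate and potassium from the space around synapses, couple to each other through gap junctions and line brain vessels with their endfeet. Their filament proteins, transporters and channels are used to recognise them, and several of these genes are raised when astrocytes react to amyloid. H3K4me3 marks active promoters, H3K27ac marks active promoters and enhancers, and H3K27me3 is deposited by Polycomb at silenced genes. Some of the genes are not restricted to brain, since Vim is made in endothelial cells and fibroblasts, Gja1 in many connective and vascular cells, S100b in Schwann cells and Aqp4 in the membrane of fast muscle fibres.

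Chromatin immunoprecipitation followed by sequencing was performed in brain cortex and gastrocnemius, a calf muscle, of PSAPP mice aged 13 months. PSAPP mice carry a mutant human presenilin 1 and a chimeric mouse/human mutant amyloid precursor protein and accumulate amyloid plaques in the cortex. All 10 mice carry both transgenes, so no comparison with wild-type mice is made. They were kept in single cages on a modified AIN-93 diet for the later part of their life. The mice were of both sexes, which the labels do not give, and each tissue was taken as 1 group of 9 cortex or 10 gastrocnemius libraries per mark, 57 in all. The promoter that drives the transgenes is not named in the labels or methods. According to the animal numbers in the deposited names, 9 mice gave both tissues and gastrocnemius library 5 comes from a mouse without a cortex library. In whole tissue, fewer cells of a type and less of a mark per cell cannot be told apart.

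Reads in autosomal peaks ranged from 9.03 M to 18.6 M for H3K4me3, from 3.90 M to 27 M for H3K27ac and from 2.99 M to 18.2 M for H3K27me3, in units of 1e6 reads (M). A pair of libraries stood apart in depth, namely H3K27ac of cortex 9 (3.90 M against a median of 17.3 M) and H3K27me3 of gastrocnemius 5 (18.2 M against a median of 5.73 M). As a check of the tissues, H3K4me3 at the TSS was higher in cortex at 8 of 8 neuron markers, 8 of 8 oligodendrocyte markers and 7 of 7 tested microglia markers. It was higher in gastrocnemius at 8 of 8 muscle fibre markers, 6 of 6 endothelial and 6 of 6 fibroblast markers. Rbfox3, Snap25, Camk2a and Gad1 had no H3K4me3 peak in any gastrocnemius library, and Ckm, Myh4, Tnnt3, Tnni2 and Pvalb had none in any cortex library. Schwann cell markers split, with 2 higher in cortex and 4 in gastrocnemius of 7. Their summed H3K4me3 ran from 269 to 378 RPM in cortex and from 345 to 483 RPM in gastrocnemius, where RPM is the reads of the peaks per M reads in autosomal peaks of the library.

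The promoters differ in sequence, and 6 are shown because they span the patterns described below: a cortex peak only (Gfap, Gjb6), a stronger cortex peak (Slc1a2, Slc1a3) and a stronger gastrocnemius peak (Vim, Aldh1l1). Each is the 250 bases before the TSS on build GRCm38 (mm10), 5′ to 3′ on the strand of the gene, with the CpG dinucleotides in capitals. The Slc1a2 promoter was read from the GRCm38.p6 genome and the others equal the RefSeq promoter table of that build. They lie at chr11:102897201-102897450 (Gfap, minus strand), chr14:57133612-57133861 (Gjb6, minus), chr2:102658439-102658688 (Slc1a2, plus), chr15:8710808-8711057 (Slc1a3, minus), chr2:13574061-13574310 (Vim, plus) and chr6:90550543-90550792 (Aldh1l1, plus).
Gfap: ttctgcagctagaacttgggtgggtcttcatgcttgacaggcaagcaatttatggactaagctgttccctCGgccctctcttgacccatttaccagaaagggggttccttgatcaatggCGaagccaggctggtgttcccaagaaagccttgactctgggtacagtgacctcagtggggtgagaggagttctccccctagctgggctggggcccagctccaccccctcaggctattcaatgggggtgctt
Gjb6: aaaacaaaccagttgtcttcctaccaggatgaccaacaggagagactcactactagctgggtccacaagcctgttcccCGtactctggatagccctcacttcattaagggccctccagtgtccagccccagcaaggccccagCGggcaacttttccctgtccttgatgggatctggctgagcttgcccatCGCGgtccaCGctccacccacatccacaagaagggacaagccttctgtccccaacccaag
Slc1a2: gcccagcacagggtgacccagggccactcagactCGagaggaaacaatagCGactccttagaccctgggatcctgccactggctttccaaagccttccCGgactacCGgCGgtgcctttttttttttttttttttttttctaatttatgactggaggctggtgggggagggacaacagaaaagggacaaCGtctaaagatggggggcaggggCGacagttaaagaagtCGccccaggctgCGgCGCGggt
Slc1a3: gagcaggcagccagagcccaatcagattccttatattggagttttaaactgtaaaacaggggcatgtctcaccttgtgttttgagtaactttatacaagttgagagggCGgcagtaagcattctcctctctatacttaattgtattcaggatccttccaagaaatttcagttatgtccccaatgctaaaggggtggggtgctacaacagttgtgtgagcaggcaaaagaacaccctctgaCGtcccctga
Vim: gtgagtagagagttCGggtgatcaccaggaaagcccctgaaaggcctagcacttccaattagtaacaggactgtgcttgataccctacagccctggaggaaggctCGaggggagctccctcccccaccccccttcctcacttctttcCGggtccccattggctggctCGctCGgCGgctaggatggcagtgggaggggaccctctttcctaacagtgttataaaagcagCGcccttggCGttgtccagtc
Aldh1l1: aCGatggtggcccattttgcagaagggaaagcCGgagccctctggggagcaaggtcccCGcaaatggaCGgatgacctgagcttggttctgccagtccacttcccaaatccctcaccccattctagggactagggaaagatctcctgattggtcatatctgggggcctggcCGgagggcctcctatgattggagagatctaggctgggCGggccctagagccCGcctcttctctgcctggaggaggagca

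The Gfap promoter held 2 CpGs, the Gjb6 promoter 5, Slc1a3 2, Aldh1l1 7, Vim 8 and Slc1a2 11, against a median of 8 over 24959 promoters of the same length. Gja1 held 6 and S100b 2. Gfap, without an H3K4me3 peak at the TSS in gastrocnemius, and Slc1a3, with one in all 10 libraries, thus held equally many. The letters TATAAA were found in the promoters of Vim and Slc1a3, on either strand, and in 12% of all promoters. CCAAT was found in those of Slc1a3, Aldh1l1, Vim, S100b and Aqp4 and in 35.1% of all promoters. H3K4me3 peaks covered all 250 bases in every cortex library at Slc1a2, Slc1a3, Vim, Aldh1l1 and Gja1. At Gfap a cortex peak reached into these bases in 4 of 9 libraries and covered them in 2, so that the Gfap peak lies mainly downstream of the TSS.

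Gfap, which encodes the intermediate filament protein that defines astrocytes, carried active marks in cortex and less of them in gastrocnemius. The gene spans chr11:102887336-102897200 on the minus strand. Its H3K4me3 TSS signal in cortex was 16.7 RPM in the lowest, 24.0 in the median and 32.9 in the highest of 9 libraries, whereas 0 of 10 gastrocnemius libraries had a peak. This difference in peak calls passed Fisher's exact test (adjusted p = 0.000228, Benjamini-Hochberg over all genes). H3K27ac at the Gfap TSS ran from 14.2 to 28.8 RPM in cortex (median 27.1) and from 0 to 21.2 RPM in gastrocnemius (median 7.34), where 7 of 10 libraries had a peak. The groups overlapped, since gastrocnemius 10 exceeded the cortex libraries 6 and 7. The H3K27ac difference was called by edgeR's quasi-likelihood test (adjusted p = 0.0694), but not when the reads of a peak were shared by overlap with the window (adjusted p = 0.173) or without the weakest 25% of peaks (adjusted p = 0.11).

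The Gfap gene body was not empty in muscle. All 10 gastrocnemius libraries had an H3K4me3 peak in it, holding 7.55 to 13.7 RPM, against 12.9 to 26.3 RPM in cortex (log2 difference 0.86 ± 0.18 SE, cortex minus gastrocnemius, adjusted p = 0.000334, edgeR). The stretch shared by all 19 libraries was chr11:102893001-102893800, which holds exonic and intronic sequence about 3.80 kb into the gene. The stretch found in every cortex and no gastrocnemius library was chr11:102894401-102897000, just inside the TSS. H3K27ac over the gene body was higher in cortex as well, with 14.2 to 26.7 RPM against 3.89 to 9.59 RPM (log2 difference 1.34 ± 0.16, adjusted p = 2.68e-07, edgeR), and these groups did not overlap.

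H3K27me3 covered the Gfap TSS in both tissues. It ran from 28.1 to 60.7 RPM in cortex (median 33.2) and reached 83.8 RPM in gastrocnemius (median 43.6), with 9 of 9 and 9 of 10 libraries having a peak. No difference was called (adjusted p = 0.916, edgeR). All 9 cortexes therefore had H3K4me3 and H3K27me3 peaks that overlapped at this TSS, over 4.0 to 5.80 kb. Over the gene body H3K27me3 was slightly lower in cortex (log2 difference -0.34 ± 0.17, adjusted p = 0.0942, edgeR). This call was lost with DESeq2 size factors (adjusted p = 0.207), in DESeq2 (0.159) and with equally many peaks per library (0.189). It was also lost without the libraries whose names carry an S with a number (0.131).

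Vim, the gene of vimentin, the intermediate filament of mesenchymal and endothelial cells and of immature and reactive astrocytes, went the other way. Its H3K4me3 TSS signal ran from 61.9 to 78.5 RPM in cortex (median 71.8) and from 96.6 to 157 RPM in gastrocnemius (median 117). Every gastrocnemius library exceeded every cortex library, and the difference was called (log2 -0.81 ± 0.09, adjusted p = 4.83e-08, edgeR). Peak width differed in the same direction, with 3.60 to 5.60 kb in cortex and 5.40 to 10.8 kb in gastrocnemius (log2 -0.73 ± 0.13, adjusted p = 7.92e-05, limma). When the reads of each peak were shared by overlap with the TSS window, the H3K4me3 difference was -0.09 and was no longer called (adjusted p = 0.513, edgeR). In that fit the median over all genes was 0.34, so that Vim lay below the typical gene. In reads per kb of peak, the medians were 16.9 RPM in cortex and 16.2 RPM in gastrocnemius.

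H3K27ac at the Vim TSS was also higher in gastrocnemius, from 34.8 to 66.3 RPM (median 46.4) against 20.9 to 28.7 RPM in cortex (median 22.9), without overlap (log2 -1.06 ± 0.12, adjusted p = 3.86e-07, edgeR). With reads shared by overlap this difference was -0.42 (adjusted p = 0.0112, edgeR), beside a median of 0.31 over all genes. The H3K27ac peaks covered a median of 27.8% of the gene body in cortex and 86.3% in gastrocnemius. Vim had an H3K27me3 peak in all 19 libraries, with 7.63 to 13.8 RPM in cortex (median 10.6) and 10.4 to 40.3 RPM in gastrocnemius (median 20.7). This difference was called (log2 -0.95 ± 0.30, adjusted p = 0.014, edgeR), but not with the mouse as a block (adjusted p = 0.143), a fit over the 9 mice with both tissues, nor with DESeq2 size factors (0.156), without the weakest 25% of peaks (0.245) or with equally many peaks (0.186). Endothelial and fibroblast markers moved with Vim. Their summed H3K4me3 TSS signal ran from 191 to 261 RPM (endothelial) and from 45.2 to 78.5 RPM (fibroblast) in cortex, and from 504 to 860 RPM and from 131 to 278 RPM in gastrocnemius. Among the fibroblast markers Lum and Col3a1 had no H3K4me3 peak in cortex, and all 6 endothelial markers had a peak in every library. The part of these cells in the Vim signal was not tested.

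**Figure D1:**
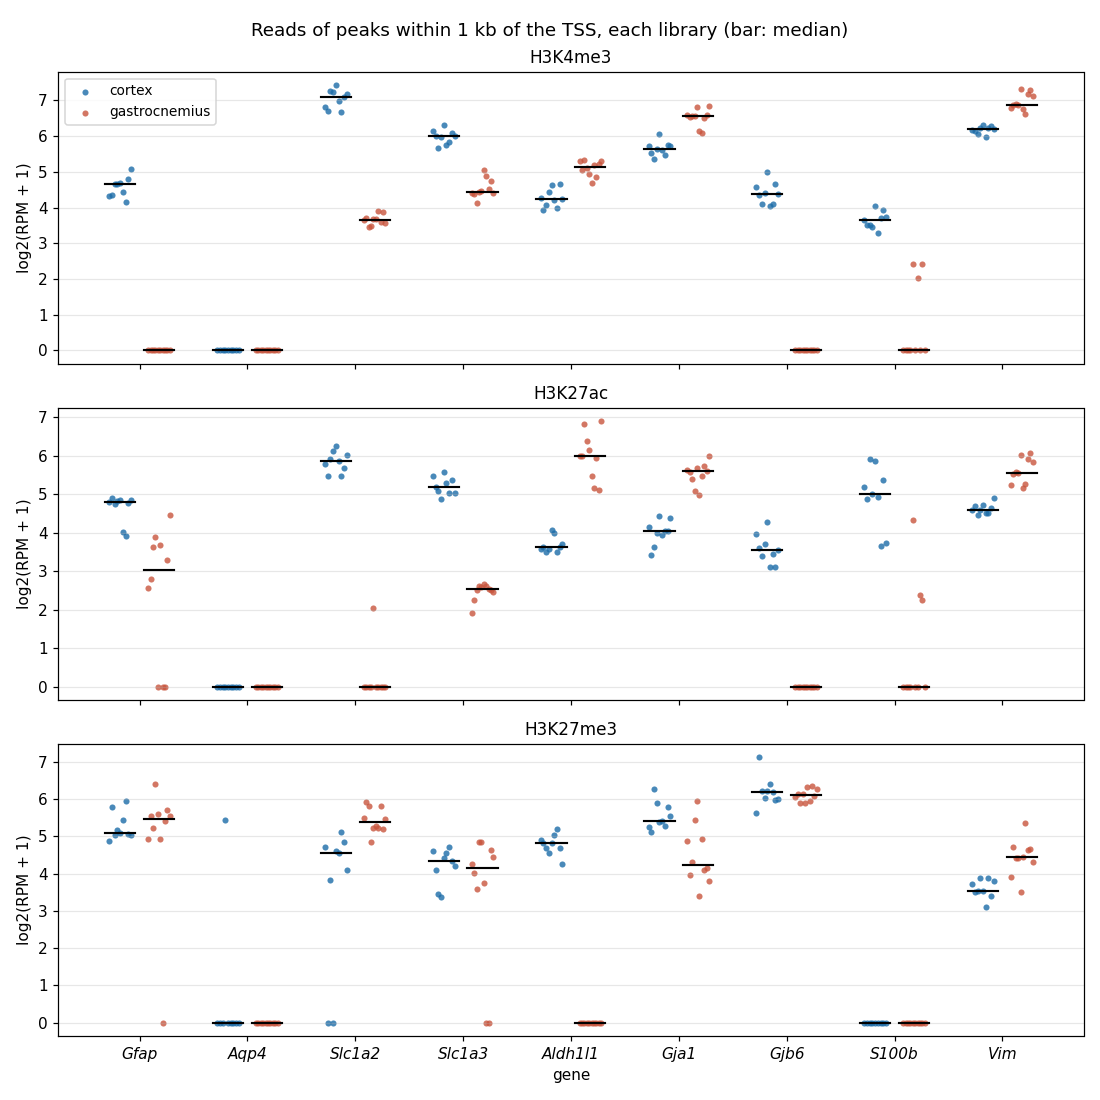
Reads of peaks within 1 kb of the TSS, as log2(RPM + 1) on the vertical axis, for the 9 genes on the horizontal axis and 1 panel per mark, with each point a library (blue, 9 cortexes; red, 10 gastrocnemius), bars at the medians and libraries without a peak at 0. For H3K4me3 the cortex points lie above the gastrocnemius points at Gfap, Slc1a2, Slc1a3, Gjb6 and S100b and below them at Aldh1l1, Gja1 and Vim.

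The 2 glutamate transporter genes of astrocytes, Slc1a2 and Slc1a3, carried more of both active marks in cortex. Slc1a2 spans chr2:102658689-102790784 on the plus strand and has 2 curated TSSs. At the first, H3K4me3 ran from 102 to 171 RPM in cortex (median 134) and from 9.89 to 13.9 RPM in gastrocnemius (median 11.7), with a peak in every library of both tissues. The log2 difference was 3.50 ± 0.10 (adjusted p = 1.99e-16, edgeR). With reads shared by overlap it was 1.58, beside a median of 0.34 over all genes. The cortex peak was 6.80 to 11.6 kb wide and the gastrocnemius peak 1.00 to 2.20 kb (log2 2.32 ± 0.15, adjusted p = 1.67e-11, limma). The mean cortex signal was above that of 94.5% of all genes. At the second TSS of Slc1a2, 47.7 kb further on, no library had an H3K4me3 peak, while H3K27ac was present in 8 of 9 cortexes and 0 of 10 gastrocnemius libraries.

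H3K27ac at the first Slc1a2 TSS was 43.2 to 75.3 RPM in cortex (median 57.6), and 1 of 10 gastrocnemius libraries had a peak there (gastrocnemius 5, 3.11 RPM). The peak calls differed (Fisher's exact test, adjusted p = 0.00144). Over the gene body, H3K27ac peaks held 98.7 to 273 RPM in cortex and 3.83 to 12.8 RPM in gastrocnemius (log2 4.54 ± 0.28, adjusted p = 2.43e-11, edgeR). They covered a median of 51.3% and 3.81% of the body. Of the region from 20 kb upstream to 5 kb past the gene, 12 stretches adding up to 30 kb had an H3K27ac peak in every cortex and no gastrocnemius library. The longest, of 7.20 kb, lay in an intron at chr2:102671001-102678200.

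H3K27me3 at Slc1a2 took the opposite course. At the TSS 7 of 9 cortexes and 10 of 10 gastrocnemius libraries had a peak, with 28.1 to 60.1 RPM in gastrocnemius (median 40.6) and up to 33.8 RPM in cortex (median 22.7), and the test did not call the difference (adjusted p = 0.162, edgeR). It was called when any TSS was counted (adjusted p = 0.0171) or when libraries without a peak took the lowest count of the library (0.0023). Over the gene body, peaks held 209 to 334 RPM in gastrocnemius (median 249) and 0 to 70.7 RPM in cortex (median 13.8), without overlap. This difference was called (adjusted p = 0.000272, edgeR), and peaks covered a median of 51.4% of the body in gastrocnemius and 2.98% in cortex. The longest stretch with H3K27me3 in every gastrocnemius and no cortex library, chr2:102702001-102704800, contained an intronic stretch with H3K27ac in every cortex and no gastrocnemius library, chr2:102702801-102704800.

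Slc1a3, at chr15:8634124-8710807 on the minus strand, showed the same active contrast without the broad muscle H3K27me3. Its H3K4me3 TSS signal was 49.6 to 79.1 RPM in cortex (median 62.7) and 16.5 to 32.1 RPM in gastrocnemius (median 20.8), with a log2 difference of 1.47 ± 0.11 (adjusted p = 5.64e-10, edgeR). The peak was 5.0 to 9.40 kb wide in cortex and 1.60 to 3.0 kb in gastrocnemius (log2 1.53 ± 0.14, adjusted p = 5.92e-09, limma). Reads per kb of peak had medians of 10.2 and 10.4 RPM. Sharing reads by overlap left a difference of 0.23 (adjusted p = 0.0388, edgeR), below the median of 0.34 over all genes in that fit. H3K27ac was 28.2 to 47.2 RPM in cortex and 2.79 to 5.40 RPM in gastrocnemius, without overlap (log2 3.0 ± 0.12, adjusted p = 2.62e-13, edgeR). These are reads of whole peaks, with a median width of 13.4 kb in cortex and 2.0 kb in gastrocnemius. Per kb of peak the H3K27ac medians were 3.08 and 2.42 RPM. Sharing reads by overlap left a log2 difference of 0.75 (adjusted p = 9.63e-05, edgeR), beside a median of 0.31 over all genes. Within and around the gene, 5 stretches with H3K27ac in every cortex and no gastrocnemius library added up to 16.4 kb, the longest in an intron at chr15:8657601-8664600.

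H3K27me3 at the Slc1a3 TSS was found in 9 of 9 cortexes (9.34 to 25.4 RPM) and in 8 of 10 gastrocnemius libraries (0 to 28.1 RPM) and did not pass the test (adjusted p = 0.845, edgeR). Over its body the medians were 44.3 RPM in cortex and 10.4 RPM in gastrocnemius, with gastrocnemius 5 at 85.3 RPM, and the difference was not called (adjusted p = 0.261, edgeR). Without gastrocnemius 5 it was called (adjusted p = 0.0666), as it was with the mouse as a block, which also leaves that library out (0.0918).

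**Figure D2:**
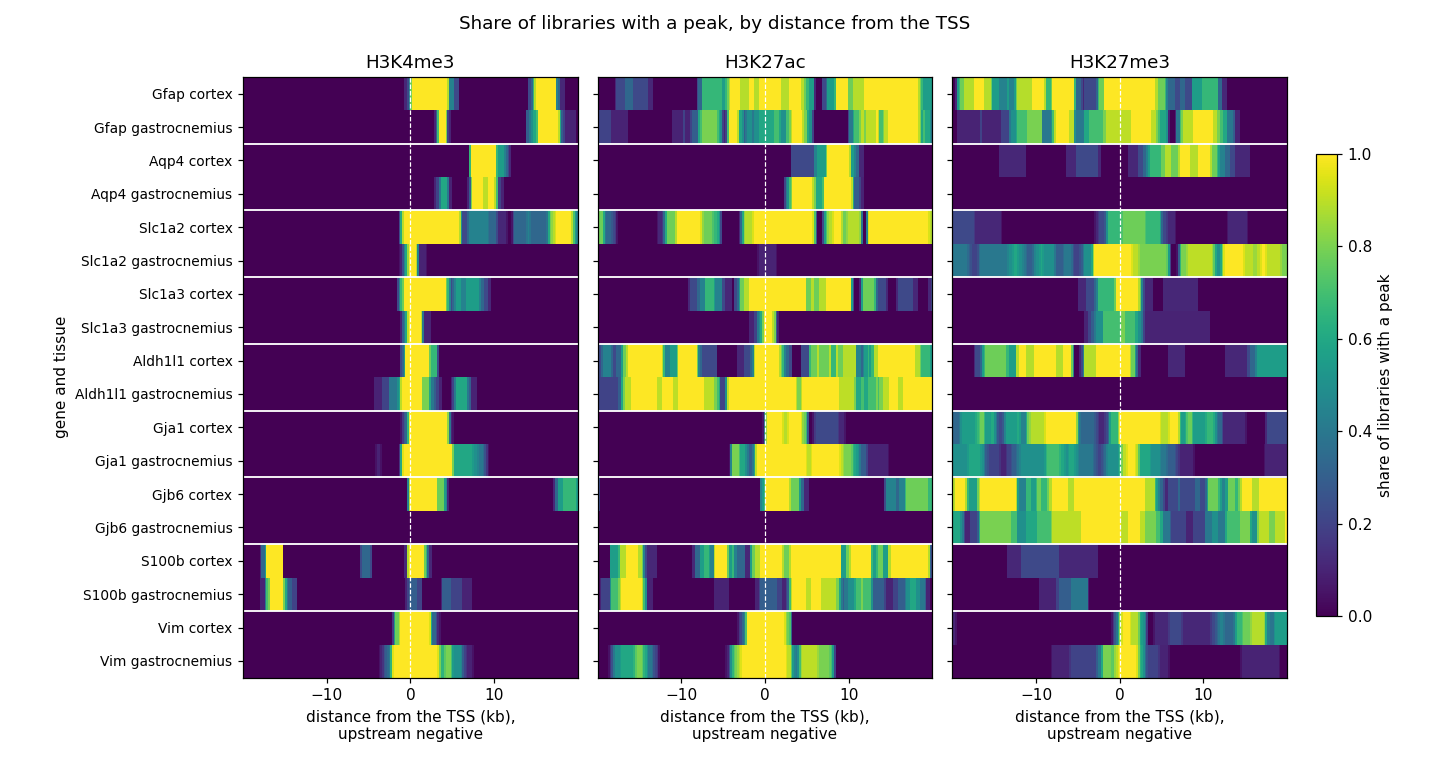
Share of libraries with a peak (colour, 0 to 1) in steps of 200 bp, by distance from the TSS in kb on the horizontal axis (upstream negative), with 1 panel per mark and 1 line per gene and tissue. Slc1a2 and Slc1a3 show wide H3K4me3 and H3K27ac in cortex and narrow or no peaks in gastrocnemius, Aldh1l1 shows H3K27me3 in cortex only, and Gfap and Gjb6 show H3K27me3 in both tissues.

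Aqp4, the water channel of astrocyte endfeet that is also present in fast muscle fibres, spans chr18:15389394-15410982 on the minus strand. Its outermost TSS had no H3K4me3 and no H3K27ac peak in any of the 19 libraries of each mark, and an H3K27me3 peak in cortex 4 alone. The active marks lay at the internal TSSs, 7.22 and 7.98 kb further in. There H3K4me3 ran from 10.1 to 24.2 RPM in cortex (median 15.5) and from 10.9 to 26.2 RPM in gastrocnemius (median 17.8), and the groups overlapped throughout. With any annotated TSS counted, the log2 difference was -0.10 ± 0.17 (adjusted p = 0.622, edgeR). H3K27ac at any TSS was lower in cortex (log2 -0.86 ± 0.29, adjusted p = 0.0134, edgeR), and over the gene body it ran from 4.48 to 18.6 RPM in cortex and from 12.9 to 33.0 RPM in gastrocnemius (log2 -1.0 ± 0.24, adjusted p = 0.000976, edgeR). H3K27me3 peaks in the Aqp4 gene body were called in cortex only. There 9 of 9 cortexes had a peak (20.04 to 42.5 RPM, median 31.0) and 0 of 10 gastrocnemius libraries had one.

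Gja1 and Gjb6 encode the connexins that join astrocytes by gap junctions, and they differed from each other. Gja1, at chr10:56377300-56390419 on the plus strand, had more H3K4me3 in gastrocnemius, with 67.0 to 115 RPM (median 94.4) against 40.2 to 65.5 RPM in cortex (median 48.8). The groups did not overlap (log2 -0.90 ± 0.10, adjusted p = 1.48e-07, edgeR), and the highest cortex library, cortex 5, lay just under the lowest gastrocnemius library. H3K27ac was 9.77 to 20.6 RPM in cortex and 30.7 to 63.1 RPM in gastrocnemius (log2 -1.57 ± 0.15, adjusted p = 1.82e-08, edgeR). The Gja1 peaks were wider in gastrocnemius, and per kb of peak the medians were 9.45 RPM in cortex and 11.02 RPM in gastrocnemius for H3K4me3 and 3.10 and 3.85 RPM for H3K27ac. Sharing reads by overlap left log2 differences of -0.68 (adjusted p = 3.38e-05, edgeR) and -1.11 (adjusted p = 2.04e-06, edgeR). The medians over all genes in those fits were 0.34 and 0.31. H3K27me3 at the Gja1 TSS was higher in cortex, with 33.7 to 75.6 RPM (median 41.3) against 9.54 to 60.5 RPM (median 17.9), and the groups overlapped through gastrocnemius 4 (42.8 RPM) and 5. This difference (log2 0.92 ± 0.32, adjusted p = 0.0224, edgeR) was lost when the weakest 25% of peaks were left out (adjusted p = 0.262), with equally many peaks (0.199), with reads shared by overlap (0.256) and with at least 500 bp of overlap (0.153). Over the Gja1 body it was 25.7 to 49.4 RPM in cortex and 4.44 to 18.6 RPM in gastrocnemius, without overlap (log2 1.74 ± 0.26, adjusted p = 2.12e-05, edgeR).

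Gjb6, at chr14:57123301-57133611 on the minus strand, had active marks in cortex only among these libraries. H3K4me3 ran from 15.4 to 31.0 RPM (median 19.8) and H3K27ac from 7.56 to 18.4 RPM (median 10.8) in the 9 cortexes, and 0 of 10 gastrocnemius libraries had a peak of either mark at its TSS or in its body. Both differences in peak calls passed Fisher's exact test (adjusted p = 0.000228 and adjusted p = 0.000187). H3K27me3 peaks held 48.3 to 138 RPM in cortex (median 72.3) and 58.6 to 81.3 RPM in gastrocnemius (median 67.9). The mean was above that of 96.8% of all genes in cortex and 95.2% in gastrocnemius. These are reads of whole peaks, with median widths of 14.2 kb in cortex and 15.4 kb in gastrocnemius. Per kb of peak the medians were 4.69 and 4.21 RPM. The log2 difference of 0.14 ± 0.17 was not called (adjusted p = 0.543, edgeR), but it was 0.50 and called with DESeq2 size factors (adjusted p = 0.0455) and in DESeq2 (0.0245). In all 9 cortexes the H3K4me3 and H3K27me3 peaks at Gjb6 overlapped, over 3.20 to 4.80 kb.

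Aldh1l1, which encodes a folate enzyme used as a marker of all astrocytes and is also made in liver, was marked more actively in muscle. It spans chr6:90550793-90599171 on the plus strand. H3K4me3 at its TSS was 14.2 to 24.2 RPM in cortex (median 17.8) and 24.8 to 39.0 RPM in gastrocnemius (median 34.4), without overlap (log2 -0.85 ± 0.11, adjusted p = 1.23e-06, edgeR). H3K27ac showed a larger gap, with 10.3 to 15.7 RPM in cortex (median 11.3) and 33.4 to 118 RPM in gastrocnemius (median 63.0; log2 -2.51 ± 0.23, adjusted p = 1.24e-08, edgeR). Its peak was 3.40 to 6.20 kb wide in cortex and 8.20 to 40.4 kb in gastrocnemius. Sharing reads by overlap with the window reduced the difference to -0.32 (adjusted p = 0.0221, edgeR). The median over all genes was 0.31 in that fit and -0.15 with whole peaks. H3K27ac peaks covered a median of 59.5% of the gene body in cortex and 93.2% in gastrocnemius. The repressive mark ran against this. H3K27me3 had a peak at the Aldh1l1 TSS in 9 of 9 cortexes (18.1 to 35.9 RPM, median 27.3) and in 0 of 10 gastrocnemius libraries (Fisher's exact test, adjusted p = 0.00022). A stretch of 4.0 kb across the TSS, chr6:90548001-90552000, had it in every cortex and no gastrocnemius library.

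S100b, a calcium-binding protein gene of astrocytes and Schwann cells at chr10:76253836-76261319 on the plus strand, was the 1 gene with no H3K27me3 peak at its TSS or in its body in any of 19 libraries. H3K4me3 at its TSS ran from 8.80 to 15.6 RPM in the 9 cortexes (median 11.6) and from 3.07 to 4.39 RPM in the 3 gastrocnemius libraries with a peak (5, 7 and 9). H3K27ac ran from 11.6 to 59.7 RPM in cortex (median 31.0), and gastrocnemius 5, 8 and 9 had 19.2, 4.23 and 3.72 RPM. These whole peaks were 3.40 to 23.6 kb wide in cortex and 2.0 to 10.4 kb in the gastrocnemius libraries with a peak. Per kb of peak the H3K27ac medians were 2.81 and 1.84 RPM. The calls differed for both marks (Fisher's exact test, adjusted p = 0.0377 and adjusted p = 0.0265). Muscle was not without H3K27ac at this gene, since its body held 7.67 to 12.2 RPM in all 10 gastrocnemius libraries and 15.9 to 20.2 RPM in cortex (log2 0.88 ± 0.10, adjusted p = 1.47e-07, edgeR). H3K4me3 over the S100b body had a peak in 9 of 9 cortexes and 4 of 10 gastrocnemius libraries and was not called (adjusted p = 0.288, edgeR). It was called with the mouse as a block (0.0401), without the weakest 25% of peaks (0.000275) and with equally many peaks (1.25e-07).

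**Figure D3:**
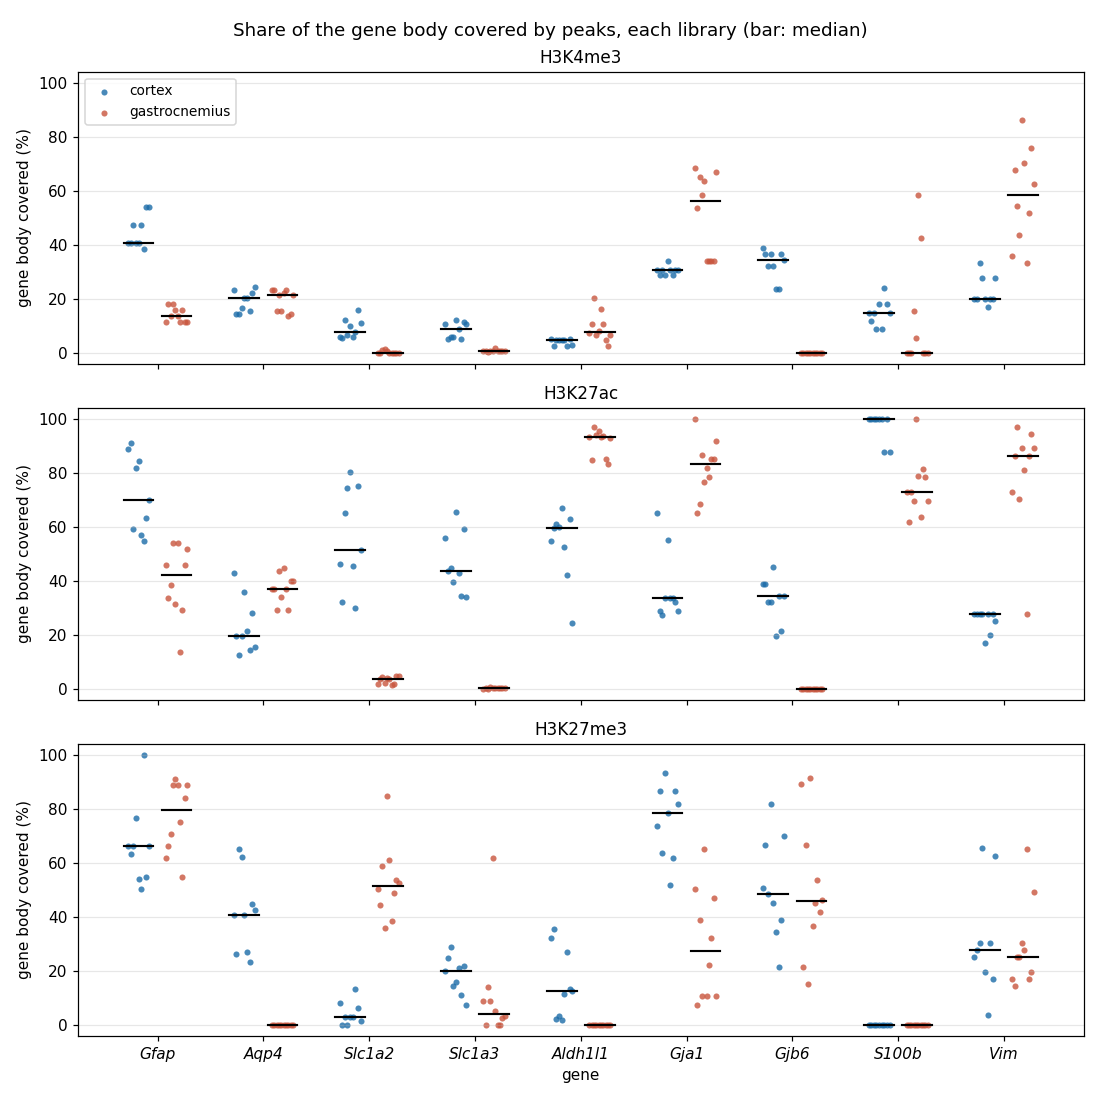
Share of the gene body beyond 1 kb of the TSS that peaks cover, in percent on the vertical axis, for the 9 genes on the horizontal axis and 1 panel per mark, with each point a library (blue, cortex; red, gastrocnemius) and bars at the medians. At Slc1a2 the H3K27ac median is 51.3% in cortex and 3.81% in gastrocnemius, and the H3K27me3 medians are 2.98% and 51.4%.

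Set against all genes, the counts of astrocyte genes called were near the background of these widely different tissues for most measures. For the H3K4me3 TSS signal 8 of 8 tested astrocyte genes were called, 5 higher in cortex and 3 in gastrocnemius, while 77.3% of 16191 tested genes were called (38.4% and 38.8% by direction). For H3K27ac it was again 5 and 3 of 8, against 74% of 17855 genes (31.6% and 42.4%), and for H3K27me3 2 and 1 of 7, against 51.2% of 8795 genes (19.7% and 31.5%). A gene with no or few peaks in gastrocnemius, such as Gfap and Gjb6 for H3K4me3, entered these counts through its cortex peaks. With testing limited to genes with a peak in every library, 2 astrocyte genes were higher in cortex and 3 in gastrocnemius for H3K4me3, and 1 and 3 for H3K27ac. The tested genes left out were Gfap, Gjb6 and S100b, and for H3K27ac also Slc1a2. All of these had a peak in every cortex and lacked one in gastrocnemius libraries, so the turn of the balance follows from the filter. Over the 5 and 4 genes that remained, the median log2 ratio of mean RPM was -0.82 and -1.31, beside -0.01 and -0.20 over all such genes. Aqp4 was not among those tested for any mark at its outermost TSS, and S100b was not for H3K27me3. Over the gene body 7 of 9 (4 and 3), 9 of 9 (5 and 4) and 5 of 8 (3 and 2) were called for H3K4me3, H3K27ac and H3K27me3, against 65.6% (24.9% and 40.7%), 71% (36.3% and 34.7%) and 57.1% (27.8% and 29.3%) of all tested genes. With the mouse as a block these became 8 of 9 for H3K4me3 (S100b added) and 6 of 8 for H3K27me3 (Slc1a3 added), and the H3K27me3 TSS count became 2 of 7 (Vim lost). The 4 and 3 for H3K4me3 over the gene body became 5 and 2 without the weakest 25% of peaks and with equally many peaks. The balance over all genes depended on the scaling. With DESeq2 size factors the share of calls higher in cortex rose from 38.4% to 50% for the H3K27me3 TSS signal, where the members became 3 and 0, and from 38% to 49.2% for the H3K4me3 gene body signal, where they stayed at 4 and 3. The median log2 difference over all genes moved from -0.29 to 0.15 and from -0.33 to -0.12. For the H3K27ac TSS signal the 5648 genes higher in cortex and 7571 in gastrocnemius became 6716 and 6387 with TMM factors and 6627 and 6485 with DESeq2 size factors, and the astrocyte genes stayed at 5 and 3. With reads shared by overlap, the share of calls higher in cortex was 78.7% in place of 49.7% for H3K4me3 and 79.4% in place of 42.7% for H3K27ac. The median log2 difference over all genes was 0.34 in place of -0.005 for H3K4me3 and 0.31 in place of -0.15 for H3K27ac.

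Presence or absence of a peak was rarer among all genes. H3K4me3 peaks were present in every cortex and no gastrocnemius library at Gfap and Gjb6, 2 of 8 genes with a peak, and at 2.93% of all genes with one (the reverse at none of the 8 and at 1.82%). H3K27ac was so at Gjb6 alone (4.21%) and H3K27me3 at Aldh1l1 alone (1.92%). Fisher's exact test called 3 of 8 (Gfap, Gjb6, S100b), all toward cortex, against 8.41% of all genes (5.01% toward cortex and 3.41% toward gastrocnemius), and for H3K27ac 3 of 8 (Slc1a2, Gjb6, S100b), also toward cortex, against 13.6% (9.28% and 4.29%). For H3K27me3 1 of 8 (Aldh1l1, toward cortex) was called against 23.5% (10.2% and 13.4%). The RPM of the tissues did not overlap at 8 of 8 genes for H3K4me3 (5 above in cortex and 3 in gastrocnemius), where 41.4% of all tested genes did not overlap (22.7% and 18.7%). It did not overlap at 6 of 8 for H3K27ac (3 and 3), against 34.2% (16.1% and 18.1%), and at 1 of 7 for H3K27me3 (Aldh1l1), against 15.1% (5.88% and 9.27%).

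Widths were compared where all 19 libraries had a TSS peak. H3K4me3 was wider in cortex at Slc1a2 and Slc1a3 and wider in gastrocnemius at Gja1 (5.0 against 9.10 kb, medians) and Vim (4.40 against 8.10 kb), 4 of 5 called against 77.5% of 13419 genes. Among all genes the balance was uneven, with 10.6% wider in cortex and 66.9% wider in gastrocnemius. For H3K27ac 4 of 4 were called (65.1% of 12951 genes, 9.7% wider in cortex and 55.4% in gastrocnemius), Slc1a3 wider in cortex (13.4 against 2.0 kb) and Aldh1l1, Gja1 and Vim wider in gastrocnemius. For H3K27me3 1 of 3 was called (25.4% of 2040 genes, 7.3% and 18.1%), namely Vim, with medians of 3.20 kb in cortex and 5.5 kb in gastrocnemius. The balance of this measure over all genes rested on a few libraries. It was 149 genes wider in cortex and 369 in gastrocnemius, and 261 and 334 without gastrocnemius 5. The reverse, 301 and 162, was found without the libraries whose names carry an S with a number. Gja1 had 8.80 and 5.40 kb and did not pass (adjusted p = 0.162, limma), but did with the mouse as a block (0.00992) or without gastrocnemius 5 (0.0192).

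**Figure D4:**
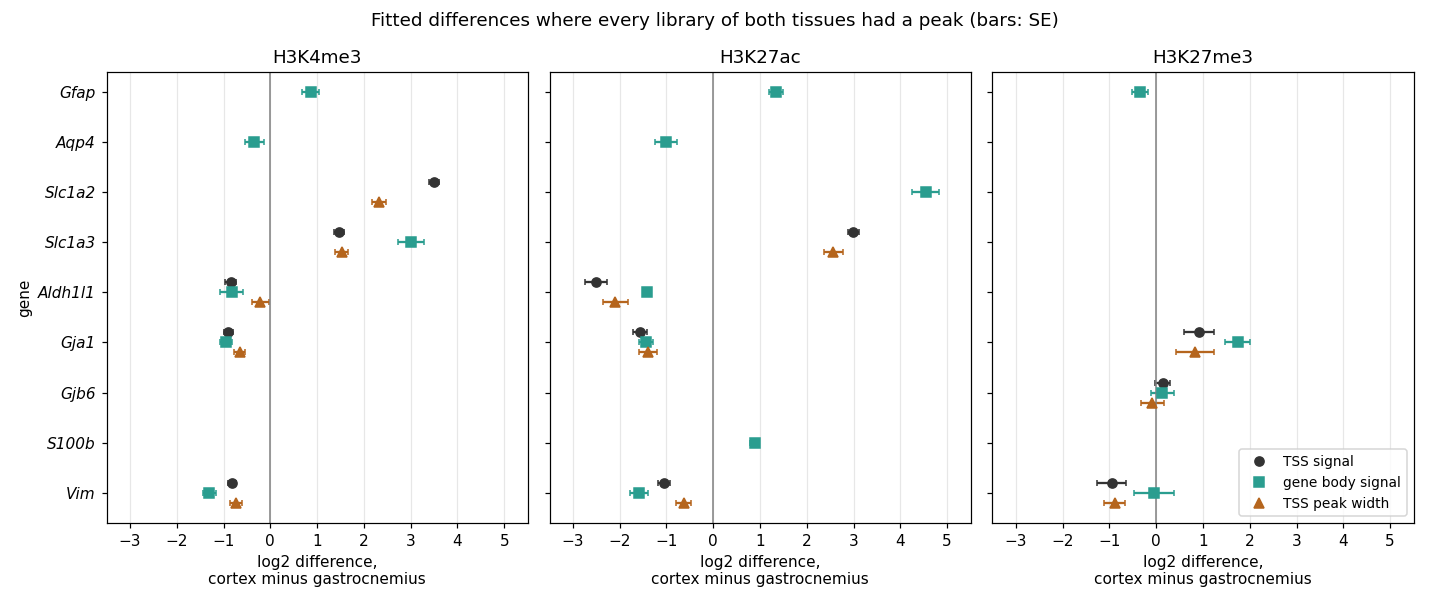
Fitted log2 differences, cortex minus gastrocnemius, on the horizontal axis for the 9 genes on the vertical axis and 1 panel per mark, shown only where every library of both tissues had a peak, with circles for the TSS signal, squares for the gene body signal, triangles for the TSS peak width and bars for the SE. Slc1a2 and Slc1a3 lie to the right of 0 and Aldh1l1, Gja1 and Vim to the left for H3K4me3.

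H3K4me3 and H3K27me3 peaks were found together at the TSS of several of these 9 genes. Both marks had a TSS peak in all 9 cortexes at Gfap, Slc1a3, Aldh1l1, Gja1, Gjb6 and Vim, 6 of the 8 with H3K4me3 in every cortex, whereas 11.9% of 14502 genes with H3K4me3 in every cortex had both in all 9 mice. In gastrocnemius both marks were present in all 10 mice at Slc1a2, Gja1 and Vim, 3 of 5, against 11.8% of 14106 genes. In gastrocnemius Aldh1l1 had H3K4me3 without H3K27me3 in all 10 mice, and Gfap and Gjb6 had H3K27me3 without H3K4me3 in 9 and 10 of 10. This did not hold for astrocyte genes in general. Of the 42 other astrocyte genes described below, 39 had H3K4me3 in every cortex. In that list 9 had H3K27me3 in every cortex and 17 in none. Nor was it particular to the 9 genes, since 6 of 6 endothelial markers had H3K4me3 and 4 had H3K27me3 in every cortex. Peaks of whole tissue can come from different cells, and whether both marks sit on the same chromatin was not tested.

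A wider list of 42 other astrocyte genes moved mostly toward cortex. Of 40 tested, 29 were higher in cortex and 9 in gastrocnemius for H3K4me3, where 38.4% and 38.8% of all tested genes were. For H3K27ac it was 28 and 8 of 41 (31.6% and 42.4% of all genes, a balance that turned with the scaling). Over the 27 of the list with a peak in every library, the median log2 ratio of mean RPM was 0.39 for H3K4me3 and 0.28 for H3K27ac, beside -0.01 and -0.20 over all such genes. This leaves out genes without a peak in some libraries, among them those with H3K4me3 in cortex alone. Over all tested genes of the list the median fitted log2 difference was 1.19 for H3K4me3 and 1.24 for H3K27ac, where the fitted value of a gene without a peak in a tissue depends on the prior count. Among genes with a peak in all 19 libraries, the largest H3K4me3 differences were at Ttyh1 (4.35 ± 0.13), Kcnj10 (2.94 ± 0.18), the potassium channel gene of astrocytes, Bcan (2.57 ± 0.23) and Clu (2.02 ± 0.12), all called by edgeR (adjusted p = 5.17e-09 or lower). Mt3, Gpr37l1 and Hepacam, chosen after their values were seen, lacked a peak in some gastrocnemius libraries and had larger ratios of mean RPM than Kcnj10 (60.7 against 3.71 RPM at Mt3). H3K4me3 was in every cortex and no gastrocnemius library at 8 of these genes, among them Slc6a11, a GABA transporter gene (21.2 to 32.2 RPM in cortex), Mlc1 (10.9 to 20.03), Acsbg1 (14.2 to 22.9) and Aldoc (31.0 to 126).

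Not all of the list followed. Among genes with a peak in all 19 libraries, the 4 largest H3K27ac differences were higher in cortex at Hepacam (log2 2.07 ± 0.20) and lower at Plcd4 (-1.93 ± 0.16), Ndrg2 (-1.90 ± 0.11) and Nfib (-1.89 ± 0.24). Genes that lacked a peak in some libraries were not ranked, and Kcnj10 (means of 113 RPM in cortex and 2.66 RPM in gastrocnemius) and Ttyh1 (277 and 30.8 RPM) among them differed more, toward cortex. It was present in every cortex and no gastrocnemius library at 5 genes, among them Slc7a10, Slc6a11, Acsbg1 and Fabp7. For H3K27me3, 4 of 27 tested were higher in cortex and 7 in gastrocnemius (19.7% and 31.5% of all tested genes). Kcnj10 had 11.1 to 26.3 RPM in cortex and 37.2 to 191 RPM in gastrocnemius (log2 -2.29 ± 0.34, adjusted p = 2.21e-05, edgeR). Ttyh1 (33.1 to 75.5 RPM) and Fabp7 (13.4 to 47.4 RPM) had H3K27me3 in all 10 gastrocnemius and no cortex library.

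A list of 34 genes raised in reactive astrocytes had more calls toward gastrocnemius. For H3K4me3 5 of 31 tested were higher in cortex and 24 in gastrocnemius, where 38.4% and 38.8% of all tested genes were. For H3K27ac it was 2 and 22 of 33, against 31.6% and 42.4%. Over those with a peak in every library, the median log2 ratio was -0.74 for H3K4me3 (23 genes) and -1.0 for H3K27ac (18 genes). Among the same 23 genes H3K4me3 was lower in cortex at Hspb1, a heat shock protein gene (log2 -2.47 ± 0.08), Cd44 (-1.97 ± 0.11) and Gbp2 (-1.58 ± 0.07) and higher at Ptgs2 (2.43 ± 0.21), a prostaglandin synthesis gene that neurons also express. Slc10a6 had H3K4me3 in all 10 gastrocnemius (22.5 to 47.1 RPM) and no cortex library. Among genes with a peak in all 19 libraries, the largest H3K27ac differences were at Nes (-2.20 ± 0.23), Stat3 (-2.05 ± 0.20), Ptx3 (-1.99 ± 0.17) and H2-D1 (-1.84 ± 0.66, with 5.20 to 188 RPM in cortex and 23.0 to 235 RPM in gastrocnemius). Steap4 and the complement gene C3 had H3K27ac in all 10 gastrocnemius libraries and no cortex library. Many of these genes are also expressed by fibroblasts and vessels, whose markers were higher in gastrocnemius at 6 of 6 genes each for H3K4me3 and for H3K27ac, and their part was not tested. Microglia markers went the other way, with 7 of 7 higher in cortex for H3K4me3 and 6 of 7 for H3K27ac.

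For H3K27me3, 10 of 28 tested reactive genes were higher in cortex and 5 in gastrocnemius, against 19.7% and 31.5% of all tested genes. The balance over all genes depended on the scaling for this measure, as given above, and the list was not counted under the other scaling. Steap4 (18.1 to 34.3 RPM), the chemokine gene Cxcl10 (30.6 to 77.6 RPM) and Ptx3 (10.3 to 25.5 RPM) had it in every cortex and no gastrocnemius library. Among those with a peak in all 19 libraries, Osmr (log2 1.25 ± 0.24) and Nes (1.18 ± 0.45) were higher in cortex and Aspg (-1.45 ± 0.26) and S1pr3 (-0.72 ± 0.27) lower. No comparison between amyloid-bearing and other mice is possible here, so the state of reactive genes in PSAPP cortex is described only against muscle of the same strain.

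The genes most like the astrocyte genes were sought by Euclidean distance over the 6 group means of the TSS signal as log2(RPM + 1), as a description. Nearest to Gfap was Klhdc7a with Mir2139, which has the same values (distance 1.38), followed by Sp7 (1.57). Nearest to Slc1a2 were the neuronal genes Adcy1 (0.55) and Nefm, with A230070E04Rik at the same values (0.68). Nearest to Vim were Pxdc1 with Gm15908 (0.90) and Dach1 (1.05).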

How the data were processed

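The H3K4me3, H3K27ac and H3K27me3 profiles of 9 cortexes and 10 gastrocnemius muscles per mark were analysed from 57 peak lists. The authors aligned paired-end reads to mm10 with BWA, removed duplicates, poorly mapped reads and reads off the autosomes and the X with SAMtools, and called peaks in each library apart with epic2 (windows of 200 bp). The study's methods give 1 set of parameters for both tissues, with 2 allowed gaps for H3K4me3 and H3K27ac, 3 for H3K27me3 and an FDR of 0.05, and the names of the cortex lists carry the same values. No source used here names the version of epic2, and no input was analysed. Deposited counts are reads per called peak, in whole numbers and not normalised, and the deposited score, given by the authors' peak caller, was used only to rank peaks. File names are written differently for the 2 tissues, and those of the gastrocnemius lists carry no parameters.

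TSSs and gene spans were taken from the curated RefSeq annotation of GRCm38.p6 (mm10). TSS signal is the summed reads of whole peaks that overlap 1 kb on either side of the outermost TSS. Gene body signal shares the reads of a peak by overlap with the rest of the gene. Both were scaled to the reads in autosomal peaks of the library (RPM), and a gene without a peak was set to 0, which says only that no peak was called. Signals were tested with the quasi-likelihood test of edgeR 4.0.16 for genes with a peak in at least 3 libraries of a tissue. Widths were tested with limma 3.58.1 on the log2 scale for genes with a peak in every library, and peak calls with two-sided Fisher's exact tests. P-values were adjusted over all genes (Benjamini-Hochberg) and called at an FDR under 0.1. Fitted log2 differences with SE are given only where all libraries had a peak. R 4.3.3, DESeq2 1.42.0, Python 3.11.15 and pandas 2.3.3 were used.

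In simulated counts of the TSS signal, 200 genes were changed 2-fold, of 16191 for H3K4me3, 17855 for H3K27ac and 8795 for H3K27me3. Of these, edgeR recovered 167, 119 and 6, with 37, 17 and 3 false calls. The false calls were a larger share of the calls than the FDR of 0.1 allows. In the data a far larger share of genes was called (77.3%, 74% and 51.2%), so the simulation does not give the recovery or false calls there. Calls near the threshold remain less sure, and a 2-fold difference of H3K27me3 can go uncalled where few genes change. Each library of a tissue is a different mouse. The animal numbers in the deposited names pair 9 mice across tissues. The deviations of same-mouse libraries from their group means correlated between -0.0549 and 0.0537. A fit with the mouse as a block was an alternative, with others on scaling, filters, windows and peak thresholds. An S with a number stands in the names of 2 cortex and 4 gastrocnemius libraries per mark. The labels do not say what it means, and a fit without these libraries was made. Leaving out cortex 9 for H3K27ac and gastrocnemius 5 for H3K27me3 was added after seeing the data.

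The members and lists were chosen with earlier results of these data known. Named from the 2 wider lists were, per mark, the 4 called genes with the largest difference and a peak in all libraries, and up to 4 with a peak in every library of 1 tissue and none of the other. For Gfap, Slc1a2 and Vim the 3 nearest genes were named. The sex of the mice was not used, since the labels do not give it.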

Additional observations from a re-analysis of the deposited data

Results flagged for a closer look

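In 20 of 126 groups of 9 or 10 values, 1 library lay farther from the others than Dixon's 95% limit allows. Chance alone would give about 1 in 20 groups. At the TSS, H3K27me3 of Aqp4 was 42.5 RPM in cortex 4 and 0 in the other cortexes, and H3K27ac of Slc1a2 was 3.11 RPM in gastrocnemius 5 and 0 in the other muscles. H3K27ac of S100b was 19.2 RPM in gastrocnemius 5, with 4.23 RPM as the next value. H3K4me3 of Gja1 was 65.5 RPM in cortex 5 (median 48.8), H3K27me3 of Gjb6 138 RPM in cortex 2 (median 72.3) and H3K27me3 of Vim 40.3 RPM in gastrocnemius 7 (median 20.7).

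Over gene bodies, gastrocnemius 7 was lowest for H3K27ac of Gfap (3.89 RPM, median 8.21) and highest for H3K27ac of Aqp4 (33.0 RPM, median 20.5), H3K27ac of Aldh1l1 (171 RPM, median 144) and H3K27me3 of Vim (24.7 RPM, median 6.87). Cortex 7 was highest for H3K27me3 of Gfap (33.6 RPM, median 22.4) and of Slc1a2 (70.7 RPM, median 13.8). H3K4me3 of Slc1a3 was 15.1 RPM in gastrocnemius 6 (median 4.58), H3K27me3 of Slc1a3 85.3 RPM in gastrocnemius 5 (median 10.4) and H3K4me3 of Gja1 49.7 RPM in cortex 5 (median 33.9).

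Among TSS peak widths, Aldh1l1 H3K27me3 was 4 kb in cortex 9 (median 6.2 kb) and Gja1 H3K27ac 2.2 kb in cortex 2 (median 5 kb). Gja1 H3K27me3 was 22.6 kb in cortex 3 (median 8.8 kb) and 30.6 kb in gastrocnemius 5 (median 5.4 kb), and Gjb6 H3K27me3 was 35.2 kb in cortex 2 (median 14.2 kb). The H3K27me3 library of gastrocnemius 5 held the most reads in peaks of its mark and tissue. Without it the H3K27me3 differences of Slc1a3 over the gene body (adjusted p = 0.0666, edgeR) and of Gja1 in width (adjusted p = 0.0192, limma) were called, which they were not with it.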

How the results depend on the processing

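Of 226 alternatives for 24 counts, 209 stayed within 1.5 times the reported count, and of 418 for the 41 gene values 392 kept their direction and side of the threshold. A further 16 were no longer past it, 5 were newly past it and 5 changed sign. Testing only genes with a peak in every library, which leaves fewer genes, gave 5 astrocyte genes for the H3K4me3 TSS signal (2 higher in cortex and 3 in gastrocnemius, in place of 5 and 3), 4 for H3K27ac (1 and 3, in place of 5 and 3) and 2 for the H3K27me3 gene body, and 1117 (TSS, in place of 4501) and 1696 (gene body, in place of 5412) of all genes for H3K27me3. For the H3K27me3 TSS signal, 1 astrocyte gene was called without the weakest 25% of peaks, 1 with equally many peaks per library and 5 with any TSS, in place of 3. The H3K27me3 width count of 1 became 2 with the mouse as a block and 2 without gastrocnemius 5. It became 0 (limma) without the libraries whose names carry an S with a number. There Gja1 and Vim, 2 of 3, had an unadjusted p under 0.05 (limma). The width count became 0 without the weakest 25% of peaks and 0 with equally many peaks, where Gjb6 alone had a peak in every library (unadjusted p = 0.734, limma). With equally many peaks 345 of all genes were called, in place of 518. H3K27me3 peak calls gave 2 astrocyte genes with equally many peaks and 2 with any TSS, in place of 1. Without the libraries whose names carry an S with a number they gave 1479 of all genes, in place of 2566. Without those libraries the sign turned for Gjb6 H3K27me3 over the gene body (-0.0876) and in width (0.26), and Vim H3K27me3 over the gene body was 0.0131 with TMM factors, 0.0667 with DESeq2 size factors and 0.0763 in DESeq2. None of these 5 was called, and the causes of these changes were not tested. The mouse block changed 4 calls of astrocyte genes and no other: Vim lost its H3K27me3 TSS call (log2 -0.99, adjusted p = 0.143, edgeR), and S100b H3K4me3 (adjusted p = 0.0401, edgeR) and Slc1a3 H3K27me3 (0.0918) over the gene body and Gja1 H3K27me3 in width (log2 1.11, adjusted p = 0.00992, limma) gained one. A peak list gives no reads outside peaks, so a level under the peak threshold cannot be told from 0.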
